A study of Oryza sativa with 7 samples.

Results

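The comparison was of unelongated culms, the short stem bases of seedlings before their internodes extend, between the rice mutant mir156abckl and its wild type. Wild-type plants were Nipponbare, a japonica cultivar. The mutant was made in Nipponbare by CRISPR/Cas9 editing of the 5 group II MIR156 genes (MIR156a, MIR156b, MIR156c, MIR156k and MIR156l), and plants free of the editing transgene were kept. Both groups were grown in a paddy field and sampled from seedlings 20 days old, so genotype is the only difference that the labels give. The members were the 2 culm samples, of 7 samples in the series, and every gene listed for them. The other samples were culms of mir156defghi (6 edited group I MIR156 genes), and embryos and seedling shoots of wild type and of mir156abcdfghikl. Several edited lines exist for mir156abckl, and which of them gave the RNA is not stated in the sources used here, so the mutant values stand for an unnamed line. Each group has 1 deposited FPKM per gene, a count of fragments scaled by transcript length and library size, which the authors pooled over 3 repeats. These pooled values hold no spread between repeats, no test was possible from them, and every ratio below is a description. The authors' own tests over the repeats, which the paper gives for the miR156 targets, were not used.

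miR156 is a small RNA of plants that is abundant in young shoots and declines with age. It pairs with the transcripts of SQUAMOSA promoter binding protein-like (SPL) genes and lowers their expression. SPL proteins are transcription factors that set the timing of phase change, tillering, leaf production and panicle branching, and IPA1 (also named SPL14) is known in rice for few tillers and strong stems when its transcript escapes miR156. Several MIR156 genes make the same or nearly the same mature RNA, so the comparison asks what editing the group II copies alone changed in the culm. In the paper's Northern blot of somewhat older seedlings, miR156 was markedly lower in mir156defghi but not in mir156abckl.

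The edited stretches are shown first because they define the genotype. From the study's list of mir156abckl lines in Nipponbare 4 lines were read, fewer than the paper's text gives for this background. The edits of A99 and A103 are given here, with deleted bases closed up, as listed and each read 5′ to 3′. In A99 the capitals mark the longest run of bases, 12 long, that MIR156a, MIR156b, MIR156c and MIR156l still shared on either strand, and in MIR156k the longest run, 10 long, shared with MIR156b. MIR156a and MIR156k are listed on the strand opposite to the others. Line A99 lacked 13 bases in MIR156k and 3 bases in MIR156l.
MIR156a in A99: ccacgtggTGCTCACTCTCTtctgt
MIR156b in A99: cagaAGAGAGTGAGCAccacacgg
MIR156c in A99: acagaAGAGAGTGAGCAccacatgg
MIR156k in A99: tcgtcgctgctctCTCTCTTCTGtcatc
MIR156l in A99: ccgacAGAGAGTGAGCAtat
Line A103 kept a longer common run of 15 bases, and 12 in MIR156k, where 3 bases were deleted. Its other edits were inserted or replaced bases, whose positions were marked by colour in the source and are not visible in the letters.
MIR156a in A103: ccacgtttTGCTCACTCTCTTCTgt
MIR156b in A103: gacAGAAGAGAGTGAGCAccacacgg
MIR156c in A103: acAGAAGAGAGTGAGCAccacatgg
MIR156k in A103: gctgccgggttgtctCTCTCTTCTGTCa
MIR156l in A103: ccgacaAGAAGAGAGTGAGCAtata

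In all, 23581 genes were listed for the 2 culm groups, of which 51 were listed at 0 in the wild type and 39 at 0 in mir156abckl. Genes above 0 in both groups and with at least 1 FPKM in the higher one were counted, which left 22243 genes. Read depth is unknown, because the tables hold no counts. The labelled tissue was checked by marker genes. The 7 genes described as homeobox protein knotted, which mark shoot meristem and stem, summed to 239 FPKM in wild-type culms and 198 FPKM in mir156abckl culms. Glutelin, prolamin and oleosin genes of seeds summed to only 14.1 and 13.4 FPKM, against 102531 FPKM in wild-type embryos. Photosystem and chlorophyll a-b binding genes of green tissue summed to 969 FPKM in wild-type and 1305 FPKM in mir156abckl culms, against 79482 FPKM in wild-type shoots, with the caution that the tables were normalized separately. No row was described as a miRNA, so the edited genes themselves could not be read from the tables.

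The miR156 targets were the genes the comparison was made for. None of the 10 listed targets differed by 2-fold or more between mir156abckl and wild-type culms. The paper had already reported that mir156abckl raised no target to a ratio of 2 in these culms. Over all counted genes, 6.06% were at least 2-fold higher and 7.09% at least 2-fold lower. SPL3 had the largest ratio, with 44.5 FPKM in the wild type and 69.7 FPKM in mir156abckl, a log2 ratio of 0.65. SPL13, a gene known for its effect on grain length, had 9.83 and 14.7 FPKM. IPA1, the target best known for plant architecture, had 14.2 FPKM in the wild type and 20.8 FPKM in mir156abckl (log2 ratio 0.56).

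The weakly expressed targets had ratios of the same size. SPL17 had 2.62 FPKM in wild-type and 3.74 FPKM in mir156abckl culms, and SPL18 had 2.55 and 3.68 FPKM. SPL16, known for grain width, was the lowest target at 0.95 and 1.32 FPKM. The remaining 4 targets were nearly equal in the 2 groups. SPL12 had 70.5 and 68.4 FPKM, SPL4 22.9 and 21.9 FPKM, SPL2 21.1 and 19.3 FPKM, and SPL11 8.18 and 8.36 FPKM. The median log2 ratio of the 10 targets was 0.49, against -0.02 over all counted genes. SPL7 was not listed for these culms.

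**Figure D1:**
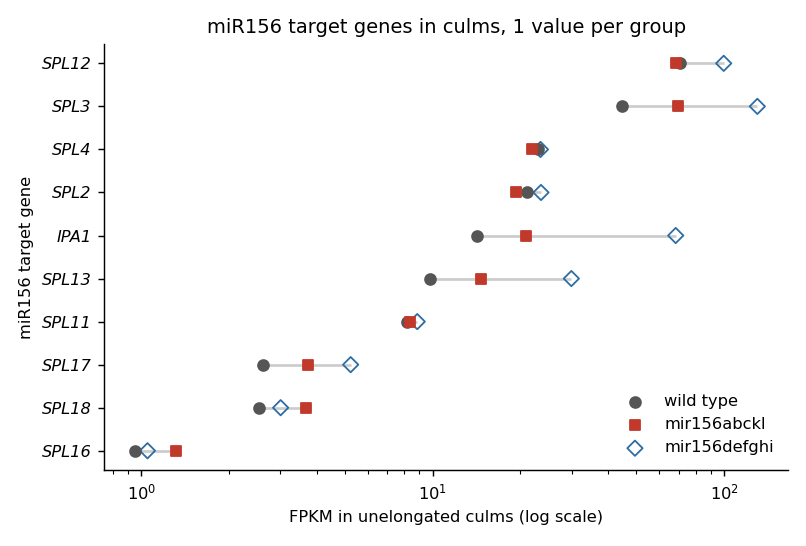
FPKM of the 10 listed miR156 target genes in culms, on a log scale, with 1 deposited value per group: wild type (filled circles), mir156abckl (squares) and mir156defghi (open diamonds). The mir156abckl values of SPL3, SPL13, IPA1, SPL16, SPL17 and SPL18 lie to the right of the wild type by log2 ratios of 0.47 to 0.65, and the mir156defghi values of IPA1, SPL3 and SPL13 lie further to the right.

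In mir156defghi culms, compared with the same wild type, IPA1 had 68.2 FPKM, SPL3 130 FPKM and SPL13 29.9 FPKM, log2 ratios of 2.28, 1.56 and 1.61. Of the 10 targets, 4 were at least 2-fold higher there, SPL17 included at 5.23 FPKM, beside 5.22% of all genes counted in that comparison. SPL18 and SPL16 were instead higher in mir156abckl (3.68 and 1.32 FPKM) than in mir156defghi (3.01 and 1.05 FPKM). These differences between the mutants could not be tested. The 6 SPL genes that miR156 does not target had a median log2 ratio of 0.01 in mir156abckl, and SPL15, the most strongly expressed of them, had 91.3 and 105 FPKM.

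Genes of gibberellin metabolism were examined because gibberellin promotes stem growth and because the study followed this hormone. None of the 7 listed biosynthesis genes passed the 2-fold limit. SD1, which encodes the gibberellin 20-oxidase of the semi-dwarf green revolution varieties, had 6.35 FPKM in the wild type and 3.41 FPKM in mir156abckl. GA3ox2, which makes the bioactive hormone, had 11.0 and 6.98 FPKM, and KS1, an early enzyme, had 8.55 and 12.6 FPKM. None of the 4 listed signalling genes passed the limit, with SLR1, the DELLA repressor, at 144 and 155 FPKM and the receptor gene GID1 at 84.8 and 71.1 FPKM. The identifier listed for GID2 is described in the deposited table as a 14-3-3 protein.

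Of 9 listed gibberellin deactivation genes, a list that includes the regulator HOX12, 2 were at least 2-fold higher and 3 at least 2-fold lower in mir156abckl culms, beside 6.06% and 7.09% of all genes. With 1 FPKM added to both groups, both upward genes and EUI1 fell short of 2-fold. GA2ox3, whose product inactivates gibberellin, had 15.2 FPKM in wild-type and 5.99 FPKM in mir156abckl culms. HOX12, a homeobox gene that in rice activates EUI1, had 52.5 and 22.4 FPKM, and EUI1, a gibberellin-inactivating cytochrome P450, had 1.71 and 0.65 FPKM. GA2ox1 (2.90 and 6.71 FPKM) and GA2ox6 (0.49 and 1.17 FPKM) lay past the limit the other way. In mir156defghi culms HOX12 had 79.8 FPKM, above the wild type, whereas GA2ox3 had 11.9 FPKM.

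Across the transcriptome, 1348 genes were at least 2-fold higher and 1577 at least 2-fold lower in mir156abckl culms. The lower genes were the more highly expressed. They had a median of 7.08 FPKM in the wild type and 2.09 FPKM in mir156abckl and made up 7.87% of all wild-type FPKM, whereas the higher genes had medians of 1.45 and 4.80 FPKM and made up 2.43% of all mir156abckl FPKM. At 4-fold or more, 288 genes were higher and 478 lower. Among genes with a geometric mean of 100 FPKM or more over the 2 groups, 3 of 940 were past the limit upwards and 52 downwards.

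**Figure D2:**
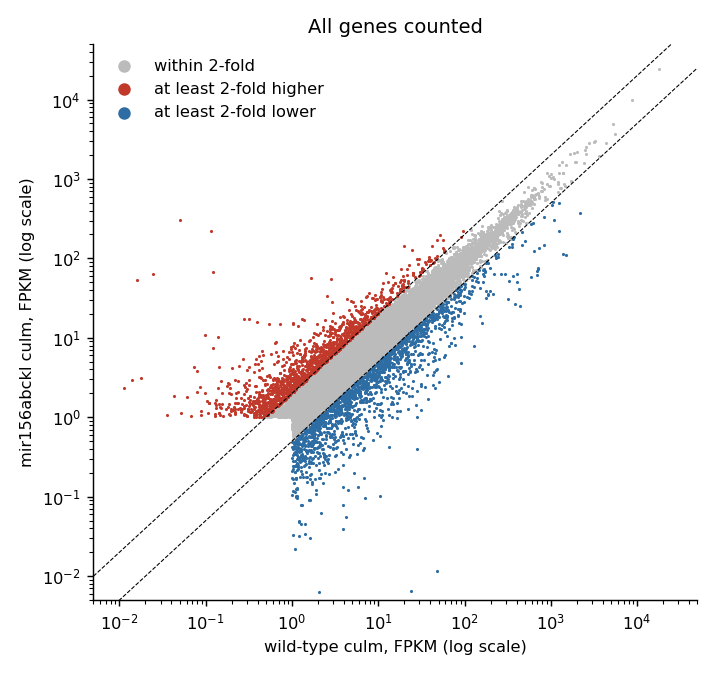
FPKM of the 22243 counted genes in wild-type culms (x axis) and mir156abckl culms (y axis), both on log scales, with 1 point per gene. Dashed lines mark the 2-fold limits, beyond which lie 1348 higher and 1577 lower genes, and at high FPKM the points past the limit lie mostly below the lines.

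Genes of cell division stood higher in mir156abckl culms as a group. Of 90 counted genes for cyclins, cyclin-dependent kinases A and B, kinesins and the MCM helicase that opens DNA for replication, 30 were at least 2-fold higher (beside 6.06% of all genes) and 0 at least 2-fold lower. With 1 FPKM added to both groups, 17 were at least 2-fold higher. The median log2 ratio of the list was 0.65. All 10 MCM genes were higher, 5 of them past the limit, with a median log2 ratio of 1.03. The kinesins, microtubule motors that include the motors of the spindle, had 16 of 40 members past the limit upwards and a median of 0.85. Cyclins and cyclin-dependent kinases had 9 of 40 past it and a median of 0.53. Dividing the list by kind was done after the values were seen.

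The largest ratio in this list belonged to the kinesin gene LOC_Os09g35890, with 0.93 FPKM in the wild type and 5.40 FPKM in mir156abckl. The cyclin gene LOC_Os09g02360 had 3.44 and 10.9 FPKM, and the cyclin gene LOC_Os05g41390 had 2.28 and 6.57 FPKM. At the other end, the cyclin genes LOC_Os03g42070 (17.8 and 10.8 FPKM) and LOC_Os05g25950 (35.8 and 24.6 FPKM) were lower without reaching 2-fold.

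Core histone genes, whose transcripts accumulate while DNA is copied, showed the same direction. Of 47 counted, 16 were at least 2-fold higher (34.0%, beside 6.06% of all genes) and 0 at least 2-fold lower. In all, 40 of the 47 lay above the wild type. LOC_Os08g38300 had 22.5 FPKM in wild-type and 82.0 FPKM in mir156abckl culms, LOC_Os06g06510, a histone H3 gene, 13.0 and 51.0 FPKM, and LOC_Os04g49420 2.09 and 11.4 FPKM. Histone copies are nearly identical in sequence, so the value of a single copy is uncertain. Summed over the list, FPKM was 4080 in wild-type and 5179 in mir156abckl culms. Other tissue markers moved at the same time. The photosystem list was higher for 30 of 35 members with 1 past the limit each way (highest member 160 FPKM in the wild type and 257 FPKM in mir156abckl), and all 6 counted knotted genes were lower with none past it. Whether the mix of tissues in the culm differed was not tested, and in bulk RNA a change in the number of cells of a type cannot be told apart from a change in the RNA of each cell.

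Ribosomal protein genes did not follow. Of 124 genes for cytosolic ribosomal proteins, 105 lay below the wild type and 19 above it, with a median log2 ratio of -0.16. Past the 2-fold limit, 0 were higher and 1 was lower. That gene, LOC_Os11g41610 for S29, had 128 and 43.2 FPKM. Growth-regulating factor and related genes, transcription factors of growing organs, had 3 of 33 members past the limit upwards and 0 downwards. The upward share was 9.09%, beside 6.06% of all genes. LOC_Os12g29980, for example, had 2.62 and 7.64 FPKM.

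Cell wall genes lay past the limit in both directions. Of 40 counted expansin genes, which encode proteins that loosen walls, 11 were at least 2-fold higher and 6 at least 2-fold lower. These shares were 27.5% and 15%, beside 6.06% and 7.09% of all genes. LOC_Os03g21820 had 3.60 FPKM in the wild type and 18.3 FPKM in mir156abckl, and LOC_Os02g42650 had 2.74 and 13.9 FPKM. The abundant LOC_Os10g40720 had 539 and 782 FPKM, 1 of the 10 largest gains in FPKM. Against this, 4 of the 5 genes described as beta-expansins and 2 of the 35 described only as expansins were lower past the limit. LOC_Os09g29710 had 408 FPKM in the wild type and 50.2 FPKM in mir156abckl. Its relative LOC_Os09g29690 had 50.2 and 5.38 FPKM. This split was made after the values were seen. It follows the wording of the descriptions, which need not follow the expansin subfamilies, so it is not a comparison of subfamilies.

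Xyloglucan-related genes and glycosyl hydrolases family 16, which includes enzymes that cut and rejoin wall xyloglucan, had 9 of 36 members higher past the limit (25%). Past it downwards was 1 (2.78%), although 16 of the 36 lay below the wild type. Over all genes the shares were 6.06% higher and 7.09% lower. LOC_Os02g57770 had 0.73 and 15.0 FPKM, and LOC_Os04g53950 12.2 and 65.7 FPKM. Cellulose synthase and cellulose synthase-like genes had 5 of 35 past the limit upwards (14.3%) and 1 downwards (2.86%). Their median log2 ratio was 0.31. CSLF8, of the family that makes mixed-linkage glucan in grasses, had 9.04 and 19.0 FPKM, and CSLD4 had 3.33 and 7.18 FPKM. Both fell short of 2-fold with 1 FPKM added to each group. Glycine-rich cell wall protein genes had 2 of 26 higher (7.69%, near the share over all genes) and 5 lower (19.2%) past the limit. Their median log2 ratio was -0.20.

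Auxin-related genes held examples on both sides. SAUR genes, short early auxin genes, had 10 of 38 members higher (26.3%) and 3 lower (7.89%, near the share over all genes) past the limit. OsSAUR24 had 6.51 and 20.6 FPKM, and OsSAUR12 37.7 and 10.6 FPKM. Among 69 genes for Aux/IAA repressors, ARF factors and auxin-conjugating GH3 enzymes, 5 were higher and 4 lower. These shares, 7.25% and 5.80%, were near those over all genes, 6.06% and 7.09%. OsIAA30 had 45.5 FPKM in the wild type and 101 FPKM in mir156abckl, whereas OsIAA16 had 50.8 and 21.8 FPKM. The AP2-like gene LOC_Os07g03250, described as PLETHORA 2, a family known from Arabidopsis root stem cells, had 0.46 and 6.15 FPKM. Type-A response regulators of cytokinin had 1 of 6 past the limit, and 5 cytokinin dehydrogenase genes had none.

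Defence-related genes stood lower in mir156abckl culms over a broad set of families. Several of these lists had many lower members in mir156defghi culms as well, as given further below. Among transcription factors, 32 of 87 WRKY genes, a family known for immune responses, were at least 2-fold lower (beside 7.09% of all genes) and 2 were higher, with a median log2 ratio of -0.54. Where the higher group had to reach 5 FPKM, 21 were lower past the limit. WRKY28 had 14.5 FPKM in wild-type and 1.02 FPKM in mir156abckl culms. WRKY72 had 19.5 and 3.68 FPKM, and WRKY77 5.24 and 0.96 FPKM. WRKY83, at 4.99 and 11.3 FPKM, had the highest ratio among members reaching 5 FPKM.

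The jasmonate genes lay on the same side. All 5 counted ZIM domain genes were lower and 4 of them were past the limit (80%, beside 7.09% of all genes). This family includes repressors of jasmonate signalling that the hormone itself induces. LOC_Os10g25290 had 62.0 FPKM in wild-type and 18.6 FPKM in mir156abckl culms, LOC_Os03g08330 45.9 and 13.5 FPKM, LOC_Os03g08320 28.8 and 8.16 FPKM, and LOC_Os03g08310 7.13 and 0.91 FPKM. The last 3 have consecutive identifiers on chromosome 3. Among lipoxygenase, allene oxide and oxophytodienoate genes, which serve jasmonate synthesis, 4 of 18 were at least 2-fold lower (22.2%) and 0 higher. The chloroplast lipoxygenase gene LOC_Os08g39850 had 11.0 and 1.19 FPKM.

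NAC transcription factor genes had 19 of 72 members past the limit downwards (26.4%, beside 7.09% of all genes) and 2 upwards (2.78%). AP2/ERF transcription factor genes had 19 of 95 downwards (20%) and 5 upwards (5.26%, near the 6.06% of all genes). The NAC gene LOC_Os07g04560 had 11.0 and 1.07 FPKM, and the ethylene-responsive factor gene LOC_Os02g43790 65.2 and 12.9 FPKM. MYB genes were more even, with 14 of 142 higher (9.86%, beside 6.06% of all genes) and 21 lower (14.8%, beside 7.09%). So were bHLH genes, with 9 of 70 higher (12.9%) and 7 lower (10%). MADS-box genes had 1 of 21 past the limit each way (4.76%). Wall-associated kinases, receptors at the cell wall, had 15 of 67 lower (22.4%) and 1 higher (1.49%), and OsWAK60 had 26.5 and 8.51 FPKM. NBS-LRR resistance genes had 21 of 253 lower (8.30%, beside 7.09% of all genes) and 7 higher (2.77%, beside 6.06%).

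Among the products of defence, 22 of 47 pathogenesis-related, chitinase and thaumatin genes were at least 2-fold lower and 7 higher. These shares, 46.8% and 14.9%, were both above those over all genes, 7.09% and 6.06%, so the list was not lower throughout. Their summed FPKM was 6610 in wild-type and 2452 in mir156abckl culms. The thaumatin gene LOC_Os12g43380 had 442 and 24.9 FPKM, LOC_Os03g46070 128 and 7.86 FPKM, and LOC_Os12g43430 46.0 and 2.33 FPKM. By kind, 9 of 17 genes described as chitinases, enzymes that cut the chitin of fungal walls, were lower and 0 higher. Thaumatins had 8 of 21 lower and 6 higher. The exception with the largest ratio was LOC_Os04g39150, a pathogenesis-related Bet v I family gene, with 2.86 FPKM in wild-type and 54.9 FPKM in mir156abckl culms.

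SCP-like extracellular proteins, the family that holds pathogenesis-related protein 1, had 10 of 15 genes lower past the limit (66.7%) and 1 higher (6.67%). The shares over all genes were 7.09% and 6.06%. The median log2 ratio of the SCP-like list was -2.52. This list was added after the values were seen. LOC_Os10g11500 had 1252 FPKM in the wild type and 218 FPKM in mir156abckl, and LOC_Os01g28450 had 90.3 and 4.80 FPKM. Class III peroxidases had 15 of 94 genes past the limit in each direction. LOC_Os03g13210 had 50.8 and 2.77 FPKM, and its neighbour in identifier, LOC_Os03g13200, had 3.85 and 18.7 FPKM. Glutathione S-transferases, detoxifying enzymes, had 16 of 65 lower (24.6%) and 6 higher (9.23%). Heavy-metal domain and metallothionein genes had 15 of 63 lower (23.8%) and 4 higher (6.35%, near the share over all genes). The gene with the largest gain in FPKM was nonetheless the metallothionein LOC_Os01g74300, with 17775 and 24565 FPKM.

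**Figure D3:**
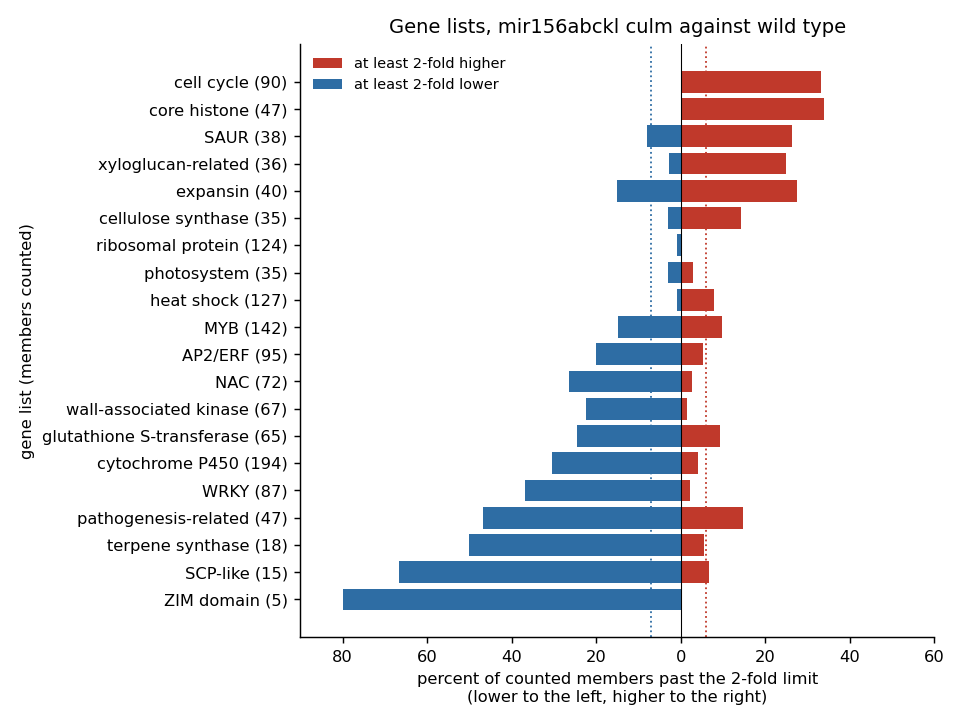
Percent of counted members of 20 gene lists past the 2-fold limit in mir156abckl against wild-type culms, higher to the right and lower to the left, with the number of members counted in brackets. Dotted lines mark the shares over all genes, 6.06% higher and 7.09% lower. Cell cycle and core histone genes have bars to the right only, and WRKY, pathogenesis-related, terpene synthase, SCP-like and ZIM domain genes have their long bars to the left.

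Cytochrome P450 and terpene synthase genes were often lower. Of 194 cytochrome P450 genes, 59 were at least 2-fold lower (30.4%, beside 7.09% of all genes) and 8 higher. The count of lower genes was 39 with 1 FPKM added to both groups, 39 where both groups had to reach 1 FPKM and 34 where the higher group had to reach 5 FPKM. Of 18 terpene synthase genes, 9 were lower (50%) and 1 higher (5.56%, beside 6.06% of all genes), with a median log2 ratio of -1.76. UDP-glycosyltransferases had 2 of 45 higher (4.44%) and 6 lower (13.3%) and a median log2 ratio of 0.02. Lignin pathway and laccase genes had 15 of 67 higher (22.4%) and 11 lower (16.4%). In rice, terpene synthases and P450 enzymes make diterpenoid phytoalexins, antimicrobial compounds, and some of their genes lie side by side. LOC_Os12g30824, a terpene synthase gene, had 28.4 FPKM in the wild type and 1.02 FPKM in mir156abckl. Gibberellin synthesis begins with enzymes of the same family, and those genes did not follow. CPS1 had 10.4 and 10.1 FPKM and KS1 was higher, as given above.

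Genes past the limit downwards were often neighbours. For 18.8% of them the next counted gene on the chromosome was also past the limit downwards, against 7.09% over all counted genes, and for genes past it upwards the values were 8.61% and 6.06%. Downward genes formed 52 runs of 3 or more neighbours and upward genes 14. Position was not used in choosing genes, but members of a run are often copies of each other that can share reads, so they do not count as separate observations.

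The longest run held 10 genes on chromosome 2 between positions 21625021 and 21906350 (TIGR release 7). By their descriptions these were 6 P450 genes, 3 putative terpene or ent-kaurene synthase genes and a zinc finger gene. LOC_Os02g36210, described as a putative ent-kaurene synthase, had 64.3 FPKM in the wild type and 3.27 FPKM in mir156abckl. Which reaction its product carries out cannot be told from the description. The P450 gene LOC_Os02g36190 had 46.3 and 3.93 FPKM, and the terpene synthase gene LOC_Os02g36140 44.8 and 3.71 FPKM. Log2 ratios in this run reached from -4.30 to -1.07.

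A run of 6 genes on chromosome 4, from position 5318059 to 5486773, held the same kinds of gene. LOC_Os04g09900 (78.4 and 8.11 FPKM) and LOC_Os04g10060 (12.8 and 1.28 FPKM) were described as putative ent-kaurene synthases. The P450 genes were LOC_Os04g09920 (63.4 and 10.7 FPKM) and LOC_Os04g10160 (21.2 and 2.04 FPKM), and 2 genes were described as tasselseed-2. All 6 were lower, at log2 ratios between -3.38 and -2.57. On chromosome 8, all 7 genes of a run from position 5233767 to 5265389 were described as cupin domain proteins, and LOC_Os08g09010 had 189 and 34.6 FPKM. A run of 6 genes on chromosome 12, from position 6138569 to 6354747, held RALFL45 (LOC_Os12g11660), with 164 and 50.9 FPKM, and LOC_Os12g11620, with no named function, at 840 and 147 FPKM. On chromosome 7, 5 SCP-like genes lay in a row, of which LOC_Os07g03610 had 28.3 and 0.40 FPKM. A further chromosome 7 run joined 4 DUF26 receptor kinase genes with the glucan endo-1,3-beta-glucosidase gene LOC_Os07g35480, which had 368 and 60.5 FPKM.

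**Figure D4:**
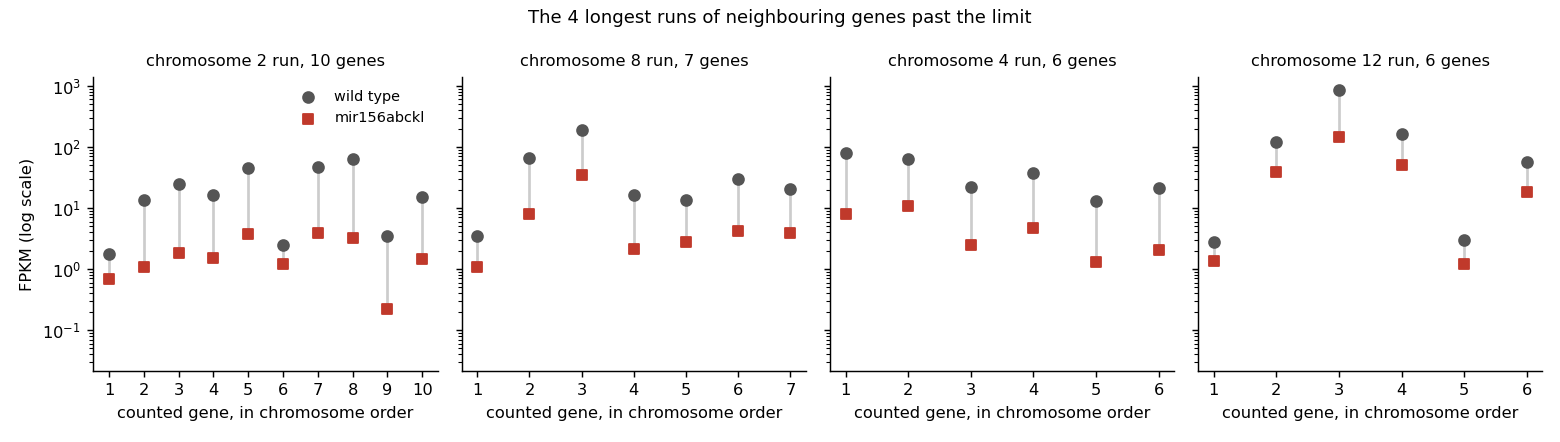
FPKM on a log scale of the genes in the 4 longest runs of neighbouring genes past the limit, in chromosome order, for wild-type culms (circles) and mir156abckl culms (squares), with 1 deposited value per group. In the 10-gene run on chromosome 2, the 7-gene run on chromosome 8 and the 6-gene runs on chromosomes 4 and 12, every square lies below its circle.

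Upward runs were shorter, at most 4 genes. On chromosome 10, 3 genes of the pollen Ole e I allergen and extensin family, LOC_Os10g05970, LOC_Os10g05980 and LOC_Os10g05990, had 0.09, 0.14 and 0.08 FPKM in the wild type and 2.39, 1.14 and 2.09 FPKM in mir156abckl. Another member elsewhere, LOC_Os03g14130, had 0.39 and 16.1 FPKM. On chromosome 3, the glutathione S-transferase genes LOC_Os03g04220 and LOC_Os03g04240 lay in a run of 3, with 5.32 and 25.5 FPKM for the first and 5.95 and 21.4 FPKM for the second.

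Secreted RALF peptides, which raise the pH of the cell wall space and signal through receptor kinases, gave some of the largest losses in FPKM. RALFL26 (LOC_Os10g41980) had 2204 FPKM in the wild type and 377 FPKM in mir156abckl, the largest drop of any counted gene that passed the limit. RALFL28 (LOC_Os06g29730) had 1490 and 109 FPKM, and RALFL27 (LOC_Os10g41999) 152 and 18.7 FPKM. Other members were higher, among them RALFL30 (LOC_Os04g31430) with 1.94 and 15.0 FPKM. Over the family, 5 of 25 were higher (20%) and 6 lower (24%) past the limit, beside 6.06% and 7.09% of all genes. The summed FPKM was 4840 and 1488. In mir156defghi culms RALFL26 had 384 FPKM and RALFL28 175 FPKM, beside the same wild type. This list, too, was added after the values were seen.

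Phytosulfokine genes, for sulfated growth peptides and their receptors, had 4 of 28 members higher (14.3%) and 2 lower (7.14%). The shares over all genes were 6.06% and 7.09%. The receptor gene LOC_Os02g53720 had 4.38 and 30.6 FPKM, and the precursor gene LOC_Os07g03200 6.99 and 0.96 FPKM. In the lipid transfer family, 12 of 76 were higher (15.8%) and 8 lower (10.5%), with LTPL113 (LOC_Os02g44320) at 0.12 and 7.51 FPKM. The thionin genes named here, for small antimicrobial peptides, were higher. Thionins were not counted as a list, and genes were named for extreme values or for lying in runs, so these cases do not stand for the family. THION31 (LOC_Os11g15250) had 0.28 and 17.1 FPKM, and THION9 (LOC_Os06g32240) 24.8 and 127 FPKM.

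A few genes were near 0 in only 1 group. LOC_Os10g20480, described as a CACTA transposon protein, had 48.5 FPKM in wild-type and 0.01 FPKM in mir156abckl culms, and the CUE domain gene LOC_Os10g16440 had 23.9 and 0.01 FPKM. In mir156defghi culms the same genes had 56.0 and 23.8 FPKM, close to the wild type. In the other direction, LOC_Os03g02470 had 0.05 FPKM in the wild type and 306 FPKM in mir156abckl, LOC_Os07g32710, a retrotransposon gene, 0.12 and 224 FPKM, and LOC_Os03g43100 0.12 and 67.7 FPKM. The last 2 were high in mir156defghi culms as well, at 132 and 75.0 FPKM, and LOC_Os03g02470 had 7.69 FPKM there. With values this close to 0 the ratio has no precision.

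LOC_Os02g52730, for ferredoxin-nitrite reductase, which turns nitrite into ammonium, had 0.10 and 10.8 FPKM, and the dirigent gene LOC_Os01g25030 had 0.14 and 10.2 FPKM. The MYB gene LOC_Os01g19330 had 0.10 FPKM in mir156abckl and 0.56 FPKM in mir156defghi, log2 ratios of -6.17 and -3.64 to the wild type. Transposon genes lay past the limit in both directions. Retrotransposon genes had 36 of 328 higher (11.0%, beside 6.06% of all genes) and 31 lower (9.45%, beside 7.09%) past the limit. DNA transposon genes had 10 of 247 higher (4.05%) and 13 lower (5.26%).

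Other lists are given by their counts, beside 6.06% of all genes higher and 7.09% lower. Heat shock and DnaJ genes had 10 of 127 higher (7.87%) and 1 lower, aquaporins 1 of 26 and 0, and carbon fixation genes 0 of 13 in either direction. Nitrate, ammonium, phosphate and sulfate transporters had 0 of 30 higher and 3 lower. Dehydrin LOC_Os03g45280 had 275 and 527 FPKM, among the 10 largest gains. The reference gene UBIQUITIN (LOC_Os03g13170) had 344 FPKM in the wild type and 274 FPKM in mir156abckl, a log2 ratio of -0.33.

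The 2 mutant culms were set side by side, although they share their wild type (FPKM in the 2 tables differed by a factor of 0.994) and so are not independent. In mir156defghi culms, 6% of counted genes were at least 2-fold lower, beside 5.22% higher. Cell cycle genes had 4 of 88 higher and 2 lower there, with a median log2 ratio of 0.08, against 0.65 in mir156abckl. Core histone genes had 1 of 48 past the limit each way and a median of -0.22, against 0.65. For expansins the medians were -0.69 in mir156defghi and 0.51 in mir156abckl, with 15 of 35 lower in the former. WRKY genes had 19 of 87 lower in mir156defghi, against 32 of 87, and P450 genes 49 of 200 against 59 of 194. SCP-like genes had 10 of 14 lower in mir156defghi, against 10 of 15, and glutathione S-transferases 18 of 65 against 16 of 65. Pathogenesis-related, chitinase and thaumatin genes had 14 of 47 lower against 22 of 47, and ZIM domain genes 0 of 5 against 4 of 5. Terpene synthase genes had 10 of 23 higher and 5 lower in mir156defghi, against 1 of 18 higher and 9 lower. The members counted differed between the 2 comparisons, 23 and 18 for terpene synthases. Genes counted only in mir156defghi could pass the filter by being high there, so these counts are not over the same genes. The histone H3 gene LOC_Os06g06510 had 12.8 FPKM in mir156defghi culms, level with the wild type, against 51.0 FPKM in mir156abckl. None of these differences between the mutants was tested.

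A comparison with its own wild type was available in shoots of mir156abcdfghikl, in which both MIR156 groups carry edits. There 26.2% of counted genes were at least 2-fold higher and 23.1% at least 2-fold lower. Over the 20364 genes counted in both comparisons, 913 of the 1090 genes higher in mir156abckl culms were also higher in those shoots, which is 83.8% of the culm list and 17.1% of the shoot list. Of the 1175 genes lower in mir156abckl culms, 880 were lower in the shoots, 74.9% of the culm list and 20.8% of the shoot list. Genes past the limit in opposite directions were 64 and 63. The share past the limit among these genes in shoots was 26.2% upwards and 20.7% downwards.

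Some lists that stood apart in culms did so in shoots as well. Cell cycle genes had a median log2 ratio of 2.48 and core histone genes of 2.54 in the shoots, and the 10-gene run on chromosome 2 a median of -5.50. The shoot mutant also had far less of the photosystem transcripts (79482 FPKM in the wild type and 11866 FPKM in mir156abcdfghikl), whereas in mir156abckl culms these were slightly higher. What part the make-up of the shoot sample had in the shared genes was not tested.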

How the data were processed

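Messenger RNA was sequenced from 7 sample groups, with stranded libraries on the Illumina platform. Per the paper's methods and the labels, the authors aligned reads with Hisat2 to TIGR release 7, computed FPKM with Cufflinks 2.2.1 and compared groups with cuffdiff. The Hisat2 version is not given in the sources used here. All 4 deposited tables give 1 FPKM per gene and group, pooled over 3 biological repeats and scaled within the table. FPKM divides by transcript length and library size, so it keeps no read depth, and neither counting error nor the spread between repeats can be obtained. Default alignment can divide reads among near-identical gene copies, and whether counting used strand is not stated. The tables also hold the authors' own log2 fold changes, p-values and q-values, which were not used.

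Log2 ratios of mutant over wild type were computed with no pseudocount (Python 3.11.15, NumPy 2.4.6, pandas 2.3.3, matplotlib 3.10.9). Genes with FPKM above 0 in both groups and at least 1 in the higher one were counted, and ratios of 2 and above, or 0.5 and below, were past the limit. The counting code was run on simulated data, in which genes of at least 5 FPKM were changed clearly past the limit with little noise. That run checked the code only. It did not cover genes of low FPKM, spread between repeats or reads shared between copies. A gene was taken as the next one by its start position.

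Of the gene lists, 49 were set by words in the deposited descriptions and 4 by identifiers from the paper. The members and lists were chosen with earlier results of these data known, and 3 lists (RALF, SCP-like, phytosulfokine) were added after the values were seen. Some words were narrowed once the descriptions had been read. Genes named were those with identifiers in the paper, the 10 highest and 10 lowest ratios at 10 FPKM or more, the 10 largest FPKM gains and losses, the 3 highest and 3 lowest ratios of each list at 5 FPKM or more, and members of the longest runs. No locus identifier matched the RefSeq table at hand, so names are those of the tables and the paper, and no promoter or protein was printed. Positions are those of the tables. Edited sequences come from the study's list of mutants. Alternatives were other minimum levels, limits, pseudocounts and centring.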

Additional observations from a re-analysis of the deposited data

Results flagged for a closer look

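For 6 named genes the FPKM was past the 2-fold limit in opposite directions in mir156abckl and mir156defghi culms. With 1 pooled value per group the difference was not tested, and both mutants share the wild type. The NAC gene LOC_Os11g03300 had 22.3 FPKM in the wild type, 3.56 FPKM in mir156abckl and 52.6 FPKM in mir156defghi, so that its log2 ratio in mir156abckl minus that in mir156defghi was -3.89. Its counterpart LOC_Os12g03040 had 18.1, 3.18 and 42.6 FPKM and a difference of -3.75. These NAC genes lie near the starts of chromosomes 11 and 12, stretches that are known to be duplicates in rice, and may share reads. LOC_Os05g47940, a root cap and late embryogenesis related gene (RCLEA8), had 6.39, 13.9 and 0.12 FPKM, a difference of 6.80. The glycine-rich cell wall gene LOC_Os10g31530 had 6.16, 14.5 and 0.17 FPKM, a difference of 6.40. With mir156defghi values this close to 0, these 2 differences have no precision. The dirigent gene LOC_Os12g12600 had 7.56, 21.4 and 3.33 FPKM, a difference of 2.68, and LOC_Os02g39384, with no named function, had 1.52, 3.25 and 0.62 FPKM, a difference of 2.37.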

How the results depend on the processing

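The counts of genes past the limit depended on the level and the limit required. Upwards, 1348 genes became 836 where both groups had to reach 1 FPKM, 654 where the higher one had to reach 5 FPKM, 721 with 1 FPKM added to both groups, 2592 at 1.5-fold and 288 at 4-fold. Downwards, 1577 genes became 930 with at least 5 FPKM, 1037 with 1 FPKM added, 2860 at 1.5-fold and 478 at 4-fold. The other alternatives moved either count by less than 1.5 times. At 1.5-fold, 1 of the 10 miR156 targets (SPL3) was past the limit. No list median that was past the limit changed direction. For a single gene past the limit, none of these alternatives can reverse the direction, so its direction was not put to a test. Of 429 named genes with a ratio, 38 lost a 2-fold ratio with 1 FPKM added, among them EUI1, GA2ox1, GA2ox6, CSLF8 and CSLD4. The cell cycle list had 17 genes past the limit upwards in place of 30 with 1 FPKM added, and the P450 list 39 downwards in place of 59. Histone, pathogenesis-related and terpene synthase counts moved by 1.5 times or less. No paired analysis was possible because each group has 1 pooled value, and for the same reason no repeat could be left out. Depth is unknown, so ratios of genes near 1 FPKM have unknown precision.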

Other observations

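Some genes were listed at 0 in 1 group and entered no ratio. In wild-type culms 51 genes were listed at 0, of which 27 had at least 1 FPKM in mir156abckl, the highest being LOC_Os10g22630 with 162 FPKM. LOC_Os01g51720, LOC_Os01g51730 and LOC_Os01g51735, with adjoining identifiers on chromosome 1, were among them at 5.13, 10.6 and 45.6 FPKM. In mir156abckl culms 39 genes were listed at 0, of which 25 had at least 1 FPKM in the wild type, the highest being LOC_Os01g10880 with 26.9 FPKM. These genes were named after their values were seen.

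Genes past the limit spanned less of the genome than others. The median span from start to end was 1874 bases for genes past the limit downwards and 2425 bases for those past it upwards, against 3416 bases over all counted genes. By chromosome, the share past the limit downwards was highest on chromosome 10 (9.81%) and lowest on chromosome 2 (5.14%), and the share upwards was highest on chromosome 4 (7.84%) and lowest on chromosome 11 (5.05%).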
